A study of Mus musculus with 14 samples.

Results

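The genes described here are 10 enzymes of the pentose phosphate pathway and of antioxidant defence: G6pdx, Pgls, Pgd, Tkt, Taldo1, Blvrb, Prdx2, Cat, Gpx1 and Sod1. They were taken as a list of symbols, selected on their measured levels in the CD105+ libraries beside the CD200+ libraries, and mapped to Ensembl gene IDs. They are 10 of 47729 genes in the count table. All 10 passed the filter on low counts, which left 15015 genes to test. RNA was sequenced from 14 small samples of cells that collagenase had released from mouse knee joints and that a cell sorter had separated, with 200 to 500 live cells in each. In antigen-induced arthritis (AIA), mice are immunized against a foreign protein, mBSA (methylated bovine serum albumin), given with complete Freund's adjuvant, and later receive mBSA into the joint. Every sample was negative for the red cell marker TER119, the endothelial marker CD31 and the leukocyte marker CD45, and positive for the integrin chain CD51. All mice were C57BL6, 16 weeks old, and the joints were taken 10 days after the joint injection. The groups were 5 samples of CD200-CD105+ cells from mice with AIA (libraries 10 to 14, CD105+ arthritic), 5 of CD200+CD105- cells from mice with AIA (libraries 5 to 9, CD200+ arthritic) and 4 of CD200+CD105- cells from mice that had PBS in place of mBSA at each injection (libraries 1 to 4, CD200+ non-immunized). No CD105+ sample from non-immunized mice was analysed here. Sorted population and arthritis therefore cannot be told apart where CD105+ arthritic and CD200+ non-immunized cells are compared. Nothing in the labels ties the samples of 1 group to different mice, so p-values measure the spread between these samples, which may be technical.

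The pentose phosphate pathway branches from glycolysis at glucose 6-phosphate. Its oxidative arm makes the reduced cofactor NADPH, and its non-oxidative arm returns pentoses to glycolysis as sugars of other lengths. NADPH keeps glutathione and thioredoxin reduced, and these in turn feed the peroxidases that remove hydrogen peroxide. Red cells and their precursors are known for high levels of several of these enzymes, and loss of glucose-6-phosphate dehydrogenase activity in people leads to haemolysis under oxidative stress. Stromal cells of joints and bone run the same pathway.

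The libraries held 12177437 to 40331071 counts, of which those on mouse genes numbered 2919666 to 18553803. ERCC spike-in RNA took 20.3% to 92.0% of the counts, and over 80% in libraries 2, 5 and 6. Levels are given as CPM, the count of a gene relative to its library's counts on all genes, after TMM scaling. In a single library, 3 counts equalled 0.171 to 0.914 CPM, which covers counting error only. Of the 8 values of 0 among the 10 enzymes, 7 came from libraries 2, 5 and 6. Cd200 RNA averaged 2.30 CPM in CD105+ arthritic cells, 420 CPM in CD200+ arthritic cells and 593 CPM in CD200+ non-immunized cells. Eng, the gene of CD105, averaged 6.63 CPM in CD105+ arthritic, 0.504 CPM in CD200+ arthritic and 5.29 CPM in CD200+ non-immunized cells, and its CPM overlapped between each pair of groups. Summed osteoblast markers ranged from 11.5 to 228 CPM in CD105+ arthritic libraries, from 23342 to 41467 CPM in CD200+ arthritic libraries and from 33494 to 118819 CPM in CD200+ non-immunized libraries. Summed stromal markers ranged from 1923 to 5505 CPM in CD105+ arthritic libraries, from 3030 to 17000 CPM in CD200+ arthritic libraries and from 9242 to 25280 CPM in CD200+ non-immunized libraries. Markers of leukocytes stood out in single libraries of 2 groups. CD105+ arthritic library 11 held 5806 CPM of macrophage and 1234 CPM of neutrophil markers. CD200+ non-immunized library 3 held 7011 CPM of neutrophil and 6786 CPM of B and plasma cell markers, and library 4 held 2291 CPM of neutrophil markers. Elsewhere these 3 lists reached at most 290 CPM in any library.

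Erythroid markers differed between the same groups as the enzymes below. Of 16 markers found in the table, 16 had counts in CD105+ arthritic libraries, 10 in CD200+ arthritic libraries and 14 in CD200+ non-immunized libraries. Their summed level ranged from 29783 to 249919 CPM in CD105+ arthritic libraries, from 47.3 to 10438 CPM in CD200+ arthritic libraries and from 1174 to 10227 CPM in CD200+ non-immunized libraries. Gata1, Klf1, Epor, Slc4a1 and Kel were among those at 0 in every CD200+ arthritic library, and Gata1 and Rhag in every CD200+ non-immunized library. The erythroid transcription factor Gata1 had 160 to 446 CPM in the CD105+ arthritic libraries. Their part in the enzyme results was not tested. In such bulk samples, fewer cells of a type and less RNA per cell cannot be told apart.

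Promoter sequences are shown for Blvrb, Prdx2 and Taldo1, whose levels in CD105+ arthritic cells stood far above both CD200+ groups, and for Cat, whose levels did not. They are the bases before the RefSeq transcription start (GRCm38.p6), read along the gene's strand and ending before the gene's first annotated base in GENCODE. Capitals mark matches to a CACCC-type motif, CCNCNCCC on either strand, a sequence that Krüppel-like factors are known to bind; overlapping matches run together.
Blvrb, chr7:27447728-27447977, plus strand: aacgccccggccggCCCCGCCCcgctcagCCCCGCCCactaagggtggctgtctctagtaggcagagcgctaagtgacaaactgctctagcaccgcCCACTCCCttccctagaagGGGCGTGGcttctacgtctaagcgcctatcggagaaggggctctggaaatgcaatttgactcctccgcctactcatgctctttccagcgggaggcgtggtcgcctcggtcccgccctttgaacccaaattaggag
Prdx2, chr8:84969372-84969586, plus strand: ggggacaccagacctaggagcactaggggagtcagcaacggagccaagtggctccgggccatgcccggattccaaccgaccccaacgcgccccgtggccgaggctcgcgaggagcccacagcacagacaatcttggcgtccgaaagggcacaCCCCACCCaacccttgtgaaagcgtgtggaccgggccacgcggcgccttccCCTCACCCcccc
Taldo1, chr7:141391910-141392159, plus strand: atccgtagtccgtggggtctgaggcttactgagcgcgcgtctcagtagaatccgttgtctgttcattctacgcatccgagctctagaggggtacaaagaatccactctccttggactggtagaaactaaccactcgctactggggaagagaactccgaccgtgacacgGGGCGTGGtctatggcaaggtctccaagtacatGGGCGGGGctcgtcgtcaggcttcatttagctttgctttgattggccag
Cat, chr2:103485161-103485403, minus strand: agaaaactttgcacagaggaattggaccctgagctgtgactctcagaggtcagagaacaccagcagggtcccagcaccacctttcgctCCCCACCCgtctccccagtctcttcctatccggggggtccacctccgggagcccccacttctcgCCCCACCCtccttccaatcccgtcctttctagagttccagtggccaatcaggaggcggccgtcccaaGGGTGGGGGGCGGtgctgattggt

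All 10 enzymes matched an entry among 27025 RefSeq promoters, compared over 250 bases before the start. The CACCC-type motif occurred in 8 of 10, with 4 matches in Blvrb, 4 in Cat, 2 in Prdx2, 2 in Taldo1 and none in Gpx1 or Pgls. It occurred in 45.6% of all promoters. GC content was 62% in Blvrb, 62% in Cat, 69.2% in Prdx2, 54.4% in Taldo1 and 42% in Gpx1, with a median of 52% over all promoters. The GATA motif AGATAA, searched on both strands, occurred in 0 of 10, against 10.3% of all promoters. The core of the antioxidant response element, TGACNNNGC on either strand, occurred in G6pdx and Sod1, against 10.1% of all promoters, and in Sod1 it overlapped a CACCC-type match. The windows of G6pdx and Tkt lay wholly inside the gene as annotated in GENCODE, and most of that of Gpx1 did. What is given for these windows, including their part in the counts above, thus describes bases within those genes. All of these are matches of letters in a short window, not binding sites.

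In the comparison of the sorted populations within arthritis, 4 enzymes had high and separate levels in CD105+ cells: Blvrb, Prdx2 and Gpx1 among the antioxidant enzymes and Taldo1 in the non-oxidative arm of the pathway. G6pdx, Pgls and Tkt were also higher by CPM in every CD105+ arthritic library than in any CD200+ arthritic library, at lower levels. For Pgls this did not hold by TPM. Pgd, Cat and Sod1 overlapped between the groups. Since the list was chosen with these levels in view, the values describe the choice and carry no test.

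G6pdx (ENSMUSG00000031400, chromosome X, 74409483 to 74429194) encodes glucose-6-phosphate dehydrogenase, which makes the first NADPH of the oxidative arm. It had 67.1, 43.1, 175, 48.4 and 78.6 CPM in CD105+ arthritic libraries 10 to 14, against 23.9, 0, 23.8, 0 and 21.5 CPM in CD200+ arthritic libraries 5 to 9 and 7.26, 39.1, 18.3 and 33.6 CPM in CD200+ non-immunized libraries 1 to 4. All CD105+ libraries lay above all CD200+ libraries of both kinds, with library 12 apart from the other CD105+ libraries. The log2 difference was 2.57 from CD200+ arthritic and 1.75 from CD200+ non-immunized cells. Exons of G6pdx share 418 bases with Ikbkg on the other strand, which averaged 6.41 CPM in CD105+ arthritic, 15.7 CPM in CD200+ arthritic and 13.4 CPM in CD200+ non-immunized cells.

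Pgls (ENSMUSG00000031807, chromosome 8, 71592176 to 71601092) encodes 6-phosphogluconolactonase, the next enzyme of the oxidative arm. Its values were 216, 175, 149, 244 and 197 CPM in CD105+ arthritic libraries, against 0, 95.7, 91.3, 89.1 and 141 CPM in CD200+ arthritic libraries and 73.8, 43.4, 69.5 and 136 CPM in CD200+ non-immunized libraries. The lowest CD105+ library lay just above the highest CD200+ library of each kind. This did not hold by TPM, with 58.3 in library 10 against 68.8 in library 9 and 63.7 in library 4. With library sizes from the spike-ins, library 12 had 166 CPM and library 9 had 240 CPM. The log2 difference was 1.23 from CD200+ arthritic and 1.28 from CD200+ non-immunized cells.

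Pgd (ENSMUSG00000028961, chromosome 4, 149149991 to 149166771) encodes 6-phosphogluconate dehydrogenase, which makes the second NADPH. It had 2.01, 52.4, 62.1, 26.8 and 30.6 CPM in CD105+ arthritic libraries, against 43.1, 76.5, 72.9, 92.6 and 42.4 CPM in CD200+ arthritic libraries and 42.6, 0, 83.5 and 36.7 CPM in CD200+ non-immunized libraries. The groups overlapped, and library 10 was the lowest CD105+ library by far. The log2 difference was -0.91 from CD200+ arthritic cells and -0.23 from CD200+ non-immunized cells. Its sign turned with library sizes from the spike-ins, where the differences were 0.53 and 0.92. Without library 3 the difference from CD200+ non-immunized cells was 0.42.

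Tkt (ENSMUSG00000021957, chromosome 14, 30548359 to 30574720) encodes transketolase, which moves 2-carbon units between sugars. The CD105+ arthritic libraries held 33.4, 97.1, 377, 243 and 126 CPM, against 0, 0, 7.10, 10.8 and 8.08 CPM in CD200+ arthritic libraries and 18.5, 0, 64.3 and 2.15 CPM in CD200+ non-immunized libraries. CD105+ libraries lay above all CD200+ arthritic libraries, while library 3 of the non-immunized group lay above library 10. The log2 difference was 5.05 from CD200+ arthritic cells and 3.04 from CD200+ non-immunized cells, and 4.68 from the non-immunized cells without library 3, the library with the most neutrophil and B and plasma cell markers, whose part was not tested. Its paralogs Tktl1 and Tktl2 had at most traces, with a mean of 0.0311 TPM for Tktl1 in CD200+ arthritic cells and 0 elsewhere.

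Taldo1 (ENSMUSG00000025503, chromosome 7, 141392199 to 141402968) encodes transaldolase, which moves 3-carbon units in the same arm. It had 1008, 547, 781, 863 and 676 CPM in CD105+ arthritic libraries, against 82.7, 115, 99.9, 129 and 153 CPM in CD200+ arthritic libraries and 47.7, 97.6, 54.5 and 101 CPM in CD200+ non-immunized libraries. The 5 CD105+ libraries lay far above all others and close to each other. The means were 775 ± 176 CPM (SD, n = 5) in CD105+ arthritic, 116 ± 27.0 CPM (n = 5) in CD200+ arthritic and 75.1 ± 27.9 CPM (n = 4) in CD200+ non-immunized cells, with log2 differences of 2.74 and 3.37.

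Blvrb (ENSMUSG00000040466, chromosome 7, 27447978 to 27466144) encodes biliverdin reductase B, an NADPH-dependent flavin reductase of red cells. It had 6530, 2257, 2272, 3536 and 3551 CPM in CD105+ arthritic libraries, against 75.2, 172, 41.5, 82.6 and 63.3 CPM in CD200+ arthritic libraries and 135, 83.4, 44.0 and 86.0 CPM in CD200+ non-immunized libraries. Every CD105+ library exceeded every CD200+ library of either kind many times over, and both CD200+ groups covered the same range. Means were 3629 ± 1743 CPM (SD, n = 5) in CD105+ arthritic, 86.8 ± 49.8 CPM (n = 5) in CD200+ arthritic and 87.1 ± 37.2 CPM (n = 4) in CD200+ non-immunized cells. The log2 differences were 5.39 and 5.38, the largest of the 10 enzymes in both comparisons.

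Prdx2 (ENSMUSG00000005161, chromosome 8, 84969587 to 84974834) encodes peroxiredoxin 2, a thioredoxin-dependent peroxidase abundant in red cells. Its levels were 6742, 3164, 2561, 4206 and 4723 CPM in CD105+ arthritic libraries, against 242, 576, 450, 471 and 523 CPM in CD200+ arthritic libraries and 530, 231, 368 and 568 CPM in CD200+ non-immunized libraries. The CD105+ libraries stood apart from both CD200+ groups, which overlapped. The log2 differences were 3.24 from CD200+ arthritic and 3.33 from CD200+ non-immunized cells. Of its 3050 exon bases, 173 are shared with Junb and 177 with Rnaseh2a, both on the other strand. Junb averaged 38.4 CPM in CD105+ arthritic, 584 CPM in CD200+ arthritic and 3536 CPM in CD200+ non-immunized cells, and Rnaseh2a 202, 20.7 and 14.5 CPM. No source used here says whether the counting used strand, so reads in the shared bases cannot be told apart.

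Gpx1 (ENSMUSG00000063856, chromosome 9, 108338903 to 108340343) encodes the cytosolic glutathione peroxidase, a selenoenzyme. It had 3631, 1288, 843, 1505 and 1605 CPM in CD105+ arthritic libraries, against 59.3, 609, 91.7, 120 and 137 CPM in CD200+ arthritic libraries and 204, 267, 108 and 187 CPM in CD200+ non-immunized libraries. The CD105+ libraries did not overlap the others, but library 6, with 92.0% spike-ins, stood above the rest of its group. The log2 differences were 3.13 from CD200+ arthritic and 3.21 from CD200+ non-immunized cells, and the first was 4.12 without library 6.

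Sod1 (ENSMUSG00000022982, chromosome 16, 90220754 to 90226329) encodes the copper-zinc superoxide dismutase, which turns superoxide into hydrogen peroxide. It had 200, 440, 131, 571 and 589 CPM in CD105+ arthritic libraries, against 102, 157, 211, 307 and 205 CPM in CD200+ arthritic libraries and 137, 47.1, 255 and 393 CPM in CD200+ non-immunized libraries. Libraries 11, 13 and 14 were above both CD200+ groups, while libraries 10 and 12 lay within them. The log2 differences were 0.98 from CD200+ arthritic and 0.89 from CD200+ non-immunized cells.

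Cat (ENSMUSG00000027187, chromosome 2, 103453849 to 103485160) encodes catalase, the haem enzyme that splits hydrogen peroxide. It had 68.2, 75.5, 126, 74.6 and 109 CPM in CD105+ arthritic libraries, against 53.4, 0, 67.5, 96.8 and 128 CPM in CD200+ arthritic libraries and 49.7, 106, 137 and 72.6 CPM in CD200+ non-immunized libraries. All 3 groups covered the same range apart from library 6, which had no count. The log2 differences were 0.39 from CD200+ arthritic and -0.01 from CD200+ non-immunized cells, and 1.32 and 1.46 with library sizes from the spike-ins.

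**Figure D1:**
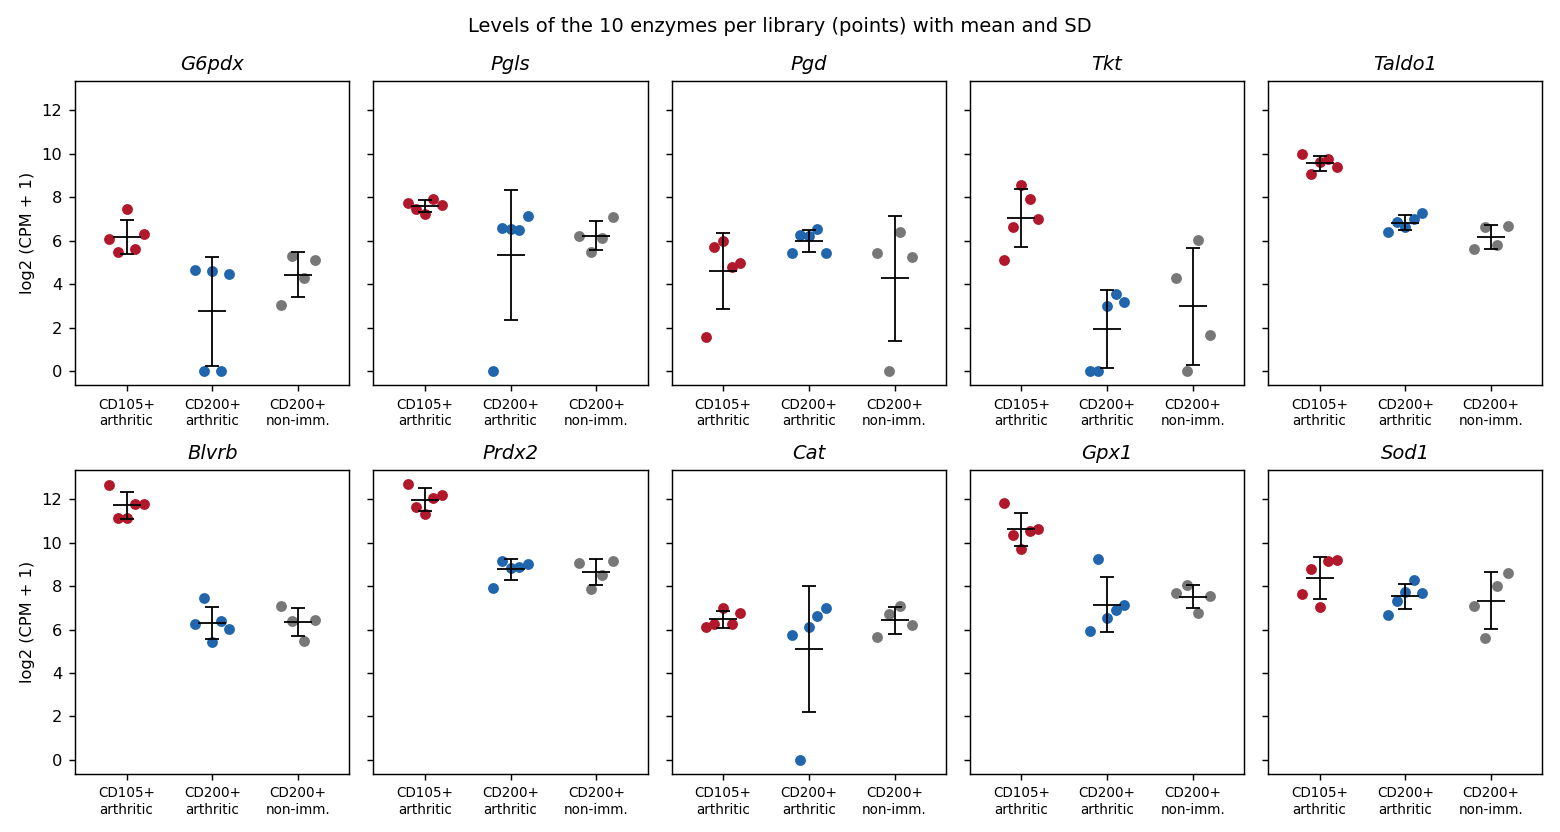
Level of each enzyme as log2(CPM + 1), where points are libraries and bars the mean and SD of the plotted values. Blvrb, Prdx2, Gpx1 and Taldo1 show 5 CD105+ arthritic libraries above all CD200+ libraries, while Cat, Pgd and Sod1 overlap.

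As the background of these counts, 11.3% of the 15015 genes tested passed the adjusted threshold of 0.05 in the CD105+ against CD200+ arthritic comparison, 4.79% higher and 6.48% lower. Log2 differences were above 0 for 48.8% of all genes and for 9 of the 10 enzymes. Of the enzymes, 4 of 10 passed it as higher and none as lower, and nothing is read from that count since the list was chosen with this contrast in view. CPM did not overlap between the groups for 16.8% of genes, 10.4% being higher and 6.33% lower in CD105+ libraries, and for 7 of the 10 enzymes, all higher. Against CD200+ non-immunized cells 13.2% of genes passed, 5.57% higher and 7.63% lower, and again 4 of 10 enzymes, all higher. There 45.5% of all genes and 8 of the 10 enzymes had log2 differences above 0. Groups did not overlap there for 24% of genes, 12.5% being higher in CD105+ libraries, and for 6 of the 10 enzymes, Tkt being the one that differed. All these overlaps were taken on CPM after TMM scaling. Under other scalings or by TPM, as given above, G6pdx overlapped CD200+ non-immunized libraries and Pgls overlapped both CD200+ groups. Both comparisons use the same CD105+ libraries, so the second repeats values of the first. The median log2 difference was 2.57 over the 5 pentose phosphate enzymes and 3.13 over the 5 antioxidant enzymes against CD200+ arthritic cells, beside -0.05 over all genes tested. With library sizes from the spike-ins the median of all genes moved to 1.23 in both comparisons, and the log2 differences from CD200+ arthritic cells then were 7.00 for Blvrb, 4.45 for Prdx2, 4.97 for Gpx1 and 3.81 for Taldo1.

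**Figure D2:**
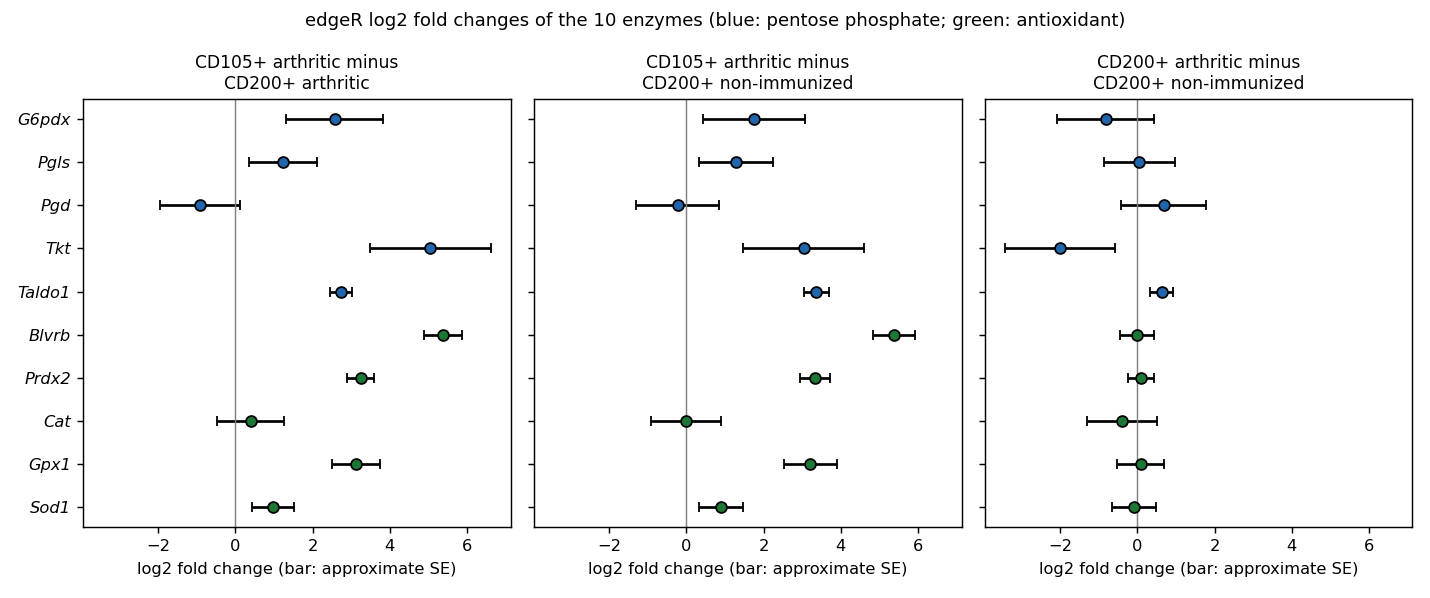
Log2 fold changes fitted by edgeR in the 3 comparisons, with bars for the approximate standard error; rows are the 10 enzymes. Values in the left and middle panels run from -0.91 for Pgd to 5.39 for Blvrb, while the right panel, arthritic minus non-immunized CD200+ cells, centres near 0 apart from Tkt at -2.01.

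Arthritis itself was compared within CD200+CD105- cells, where none of the 10 enzymes passed the test and the CPM of all 10 overlapped between the groups. Over all genes, edgeR's quasi-likelihood test called 0 of 15015 (0%), with a lowest adjusted p of 0.636, and 915 genes had an unadjusted p under the threshold. CPM did not overlap for 2.29% of genes, 1.11% being higher and 1.18% lower in arthritic cells. Log2 differences were above 0 for 44.9% of genes and for 5 of the 10 enzymes. DESeq2 called 344 genes and limma voom with sample weights 4, with none of the 10 enzymes among them in either. Taldo1 had the lowest adjusted p of the 10, at 0.823 (edgeR), with 116 ± 27.0 CPM in CD200+ arthritic and 75.1 ± 27.9 CPM in CD200+ non-immunized cells (SD, n = 5 and 4), a log2 difference of 0.63 (SE 0.29). The differences were -0.01 (SE 0.44) for Blvrb, 0.09 (SE 0.34) for Prdx2, 0.09 (SE 0.62) for Gpx1 and -0.08 (SE 0.56) for Sod1. For these 4 the errors allow changes of either sign. Gpx1 rested on library 6: the difference was -0.91 without it. The pentose phosphate enzymes with values of 0 were less precise, with -0.82 (SE 1.25) for G6pdx, 0.05 (SE 0.92) for Pgls, 0.69 (SE 1.10) for Pgd and -2.01 (SE 1.43) for Tkt, and Cat had -0.40 (SE 0.91). Without library 3 the difference was -0.42 for Tkt and 1.29 for Pgd.

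Levels were compared between the enzymes as TPM, in which counts are divided by the length of each gene's exons and set relative to the library's sum. In CD105+ arthritic cells Prdx2 had the highest TPM, at 2069 ± 262 (SD, n = 5), followed by Blvrb at 1895 ± 374 and Gpx1 at 1734 ± 487. The ranges of these 3 overlapped. Taldo1 followed at 557 ± 157 TPM, below all libraries of those 3 and above all others. Sod1 averaged 152, Pgls 80.8, Cat 58.1, G6pdx 47.1, Tkt 43.7 and Pgd 9.79 TPM, and each overlapped its neighbours in this order. In CD200+ arthritic cells the order was Prdx2 at 284, Gpx1 at 266, Taldo1 at 104, Sod1 at 95.4, Blvrb at 61.4, Cat at 51.8, Pgls at 40.8, Pgd at 19.7, G6pdx at 9.00 and Tkt at 1.32 TPM. CD200+ non-immunized cells had Gpx1 at 273, Prdx2 at 270, Sod1 at 99.3, Cat at 71.6, Taldo1 at 70.4, Blvrb at 62.5, Pgls at 41.3, G6pdx at 16.5, Pgd at 12.1 and Tkt at 5.69 TPM. Blvrb ranked 2 of 10 in CD105+ arthritic, 5 of 10 in CD200+ arthritic and 6 of 10 in CD200+ non-immunized cells.

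Within the CD105+ arthritic group, libraries 10 and 12 lay at opposite ends for several enzymes. Library 10 had the highest CPM of Blvrb, Prdx2, Gpx1 and Taldo1 and the lowest of Tkt, Pgd and Cat. Library 12 had the highest CPM of G6pdx, Tkt, Pgd and Cat and the lowest of Gpx1, Prdx2, Pgls and Sod1. Part of this order rests on the scaling. Without scaling factors Taldo1 had 757 CPM in library 10 and 857 CPM in library 12, and Pgls 162 and 164 CPM. By TPM, Taldo1 had 473 in library 10 and 803 in library 12, and Prdx2 was highest in library 14, at 2344. Pgls and Sod1 had their lowest TPM in library 10, at 58.3 and 51.3. Per length, Tkt had 4.63 TPM in library 10 and 114 TPM in library 12, while Gpx1 had 2565 TPM in library 10 and 1307 TPM in library 12. Haemoglobin genes took 18.3% of gene counts in library 10, the highest share of all libraries, and 2.71% in library 12, the lowest of its group. Their part in these differences was not tested. TPM of Prdx2 varied less, from 1721 to 2344 over the 5 libraries.

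Globin RNA and the other erythroid markers did not move together in every CD200+ library. Library 9, CD200+ arthritic, held 10398 CPM of 11 globin genes and 39.9 CPM of 12 other erythroid markers, 29.7 CPM of these from Tfrc. It had Blvrb at 63.3 CPM and Prdx2 at 523 CPM. Tfrc made up all 43.1 CPM of these other markers in CD200+ arthritic library 5, and 3.84 CPM in library 4. Library 4, CD200+ non-immunized, held 10197 CPM of globin and 29.6 CPM of the others, with Blvrb at 86.0 CPM. Library 1, CD200+ non-immunized, held 4535 CPM of globin and 199 CPM of the others, the most of any CD200+ library, and the highest Blvrb of its group, 135 CPM. Library 6, CD200+ arthritic, held 51.2 CPM of globin and 0 CPM of the others, and the highest Blvrb of all CD200+ libraries, 172 CPM. This library had 92.0% spike-ins and the fewest counts on genes, 2919666. With library sizes from the spike-ins its Blvrb was 21.4 CPM, and the highest of the CD200+ libraries was 179 CPM in library 1. In CD105+ arthritic libraries the other erythroid markers summed to 3645 to 6024 CPM beside 24711 to 243900 CPM of globin, and there Blvrb was at 2257 CPM or more. The part of either marker sum in the level of Blvrb was not tested.

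**Figure D3:**
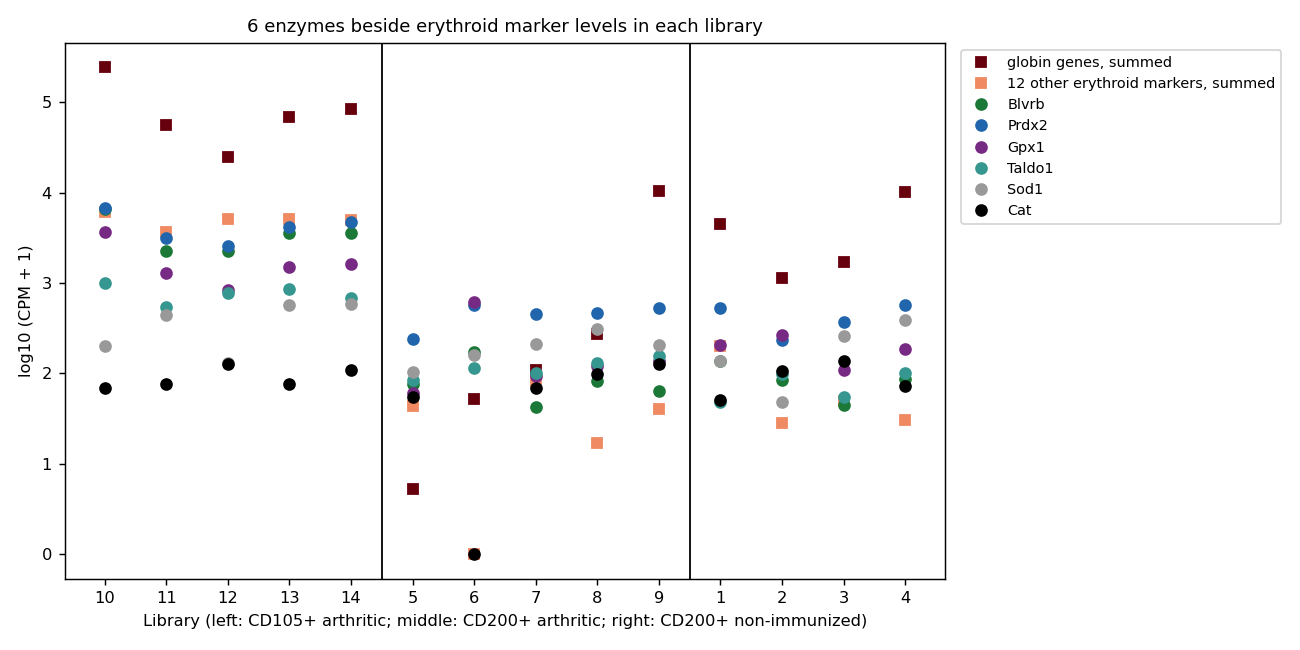
Log10(CPM + 1) of 6 enzymes (circles) and of summed globin and 12 other erythroid markers (squares) in each library; lines divide CD105+ arthritic, CD200+ arthritic and CD200+ non-immunized libraries. Where points coincide the later one covers the earlier, as for Cat and the other erythroid markers, both at 0 in library 6.

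The enzymes were then set against the other members of their own families, as shares of the family's summed TPM. Prdx2 made up 60.6% ± 5.35 of the peroxiredoxin family in CD105+ arthritic cells, against 19.3% ± 4.89 in CD200+ arthritic and 23.4% ± 4.53 in CD200+ non-immunized cells (SD, n = 5, 5 and 4). Its share lay between 52.5% and 66.6% in CD105+ libraries and never above 29.4% in any CD200+ library. Prdx1, a cytosolic peroxiredoxin of most cells, held 9.46% in CD105+ arthritic, 43.9% in CD200+ arthritic and 28.7% in CD200+ non-immunized cells. Prdx4, the peroxiredoxin of the endoplasmic reticulum, held 4.79%, 18.4% and 22.5% in the same order. The mitochondrial Prdx3 held 18.6% in CD105+ arthritic, 7.01% in CD200+ arthritic and 7.53% in CD200+ non-immunized cells.

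Among glutathione peroxidases, Gpx1 made up 57.3% ± 9.66 in CD105+ arthritic cells, against 6.08% ± 4.64 in CD200+ arthritic and 5.47% ± 2.39 in CD200+ non-immunized cells. Gpx3, the secreted form, took 4.00% in CD105+ arthritic, 60.9% in CD200+ arthritic and 65.8% in CD200+ non-immunized cells. The summed level of the family was 3008 TPM in CD105+ arthritic, 4153 TPM in CD200+ arthritic and 5608 TPM in CD200+ non-immunized cells. In TPM, the group with the most Gpx1 thus had the lowest mean of the family as a whole. The ranges overlapped, from 2590 to 3776 TPM in CD105+ arthritic and from 2067 to 5910 TPM in CD200+ arthritic libraries. CD200+ non-immunized libraries ran from 3235 to 10366 TPM, the top value being that of library 2, with 85.4% spike-ins. TPM carry no TMM scaling, and haemoglobin genes took 2.71% to 18.3% of gene counts in CD105+ libraries. Whether the order of these means holds under other scalings was not tested. Gpx2 and Gpx6 had no count in any library.

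Blvrb made up 93.9% ± 1.70 of summed Blvra and Blvrb in CD105+ arthritic, 75.0% ± 18.3 in CD200+ arthritic and 69.2% ± 16.0 in CD200+ non-immunized cells. Sod1 held 62.0% ± 23.3 of the superoxide dismutases in CD105+ arthritic, 41.1% ± 13.7 in CD200+ arthritic and 41.7% ± 26.4 in CD200+ non-immunized cells, a spread that covers the difference. For the entry step, H6pd, the form of the endoplasmic reticulum, averaged 0.738 ± 0.496 TPM in CD105+ arthritic, 13.1 ± 14.2 TPM in CD200+ arthritic and 32.3 ± 39.8 TPM in CD200+ non-immunized cells, beside 47.1, 9.00 and 16.5 TPM of G6pdx. The summed level of this family was 122 TPM in non-immunized library 2, with 85.4% spike-ins, and at most 32.7 TPM in the others of that group. G6pd2, a retrogene copy of G6pdx to which its reads could be assigned, averaged at most 0.222 TPM in any group.

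**Figure D4:**
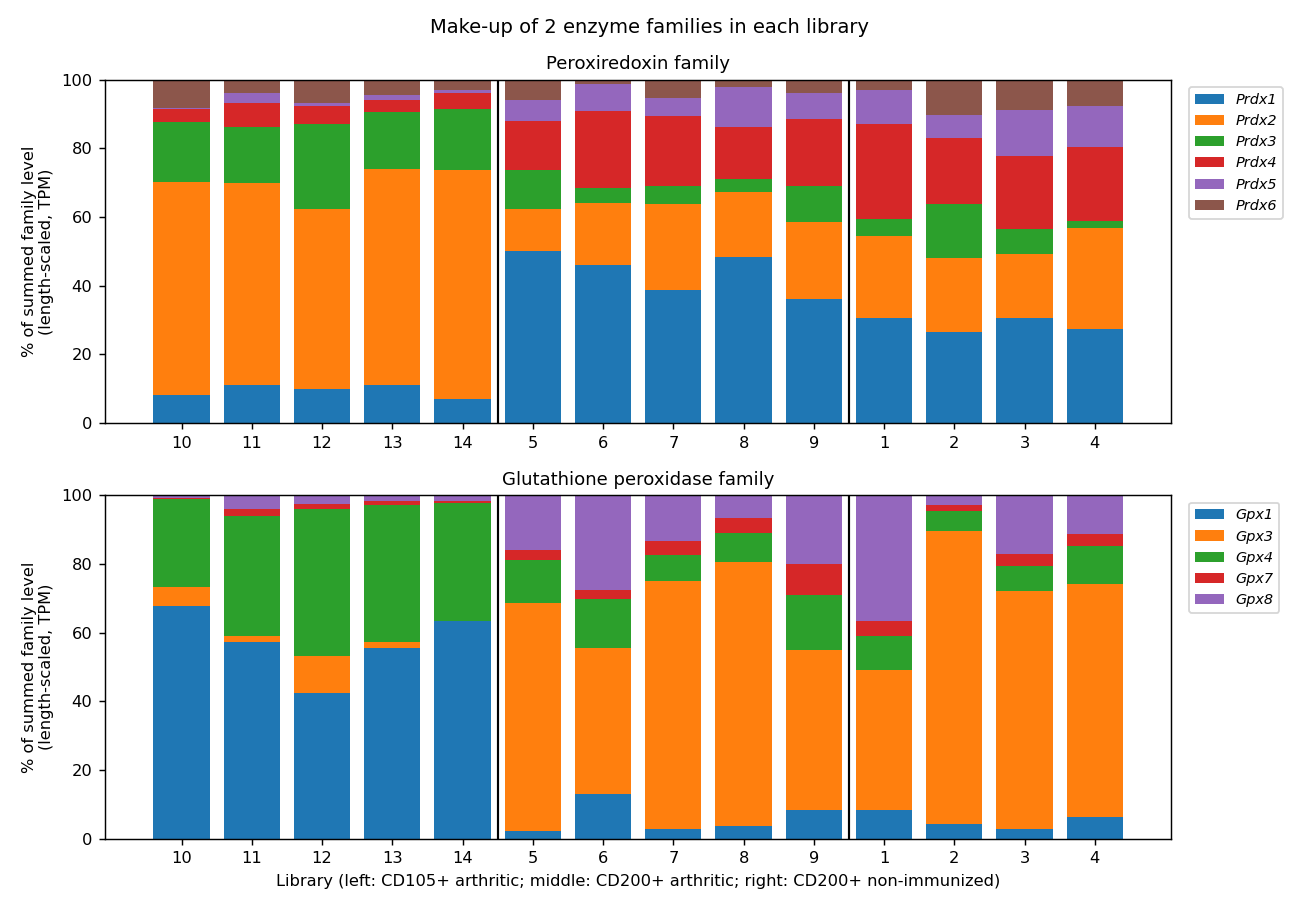
Stacked shares of the summed TPM of the peroxiredoxin family (top) and the glutathione peroxidase family (bottom) in each library; lines divide CD105+ arthritic, CD200+ arthritic and CD200+ non-immunized libraries. Prdx2 takes 52.5% to 66.6% and Gpx1 42.4% to 67.9% in CD105+ libraries, where Prdx1 and Gpx3 take the largest share in most CD200+ libraries.

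Genes of the same pathways outside the list were tested with edgeR over all genes, and 85 of 92 passed the filter on low counts. These lists were also chosen with earlier results of these data known. Their counts beside the shares of all genes are therefore descriptions and no independent support. In CD105+ against CD200+ arthritic cells, 4 of 13 other peroxidases and superoxide dismutases rose and 3 fell, beside 4.79% and 6.48% of all genes. Prdx3 averaged 617 ± 185 CPM in CD105+ arthritic and 76.7 ± 34.8 CPM in CD200+ arthritic cells (SD, n = 5 each), a log2 change of 3.01 (SE 0.42, edgeR adjusted p = 0.000747). Gpx4, which reduces lipid peroxides in membranes, rose by 1.49 (SE 0.29, adjusted p = 0.00651) and the one-cysteine peroxiredoxin Prdx6 by 2.30 (SE 0.47, adjusted p = 0.00768). Ccs, the copper chaperone of Sod1, rose by 1.46 (SE 0.43, adjusted p = 0.0411), with overlapping CPM, and kept its call in 15 of 25 alternative settings. Gpx3 averaged 151 ± 157 CPM in CD105+ arthritic and 2336 ± 874 CPM in CD200+ arthritic cells, a log2 change of -3.95 (SE 0.85, adjusted p = 0.0109). The endoplasmic reticulum peroxidases Gpx8 and Gpx7 changed by -3.33 (SE 0.55, adjusted p = 0.00234) and -2.02 (SE 0.35, adjusted p = 0.00311).

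Among 18 genes of the glutathione and thioredoxin systems, 5 rose and 1 fell, beside 4.79% and 6.48% of all genes. Glrx5, a mitochondrial glutaredoxin needed for iron-sulphur clusters and haem synthesis, averaged 2039 ± 686 CPM in CD105+ arthritic and 199 ± 106 CPM in CD200+ arthritic cells (log2 change 3.36, SE 0.39, edgeR adjusted p = 0.000181). Mgst3, a microsomal glutathione transferase, averaged 1999 ± 997 CPM in CD105+ arthritic and 67.1 ± 31.0 CPM in CD200+ arthritic cells (log2 change 4.90, SE 0.63, adjusted p = 0.000396). The mitochondrial thioredoxin Txn2 rose by 1.38 (SE 0.32, adjusted p = 0.0141) and its reductase Txnrd2 by 4.48 (SE 1.21, adjusted p = 0.0293). Txnrd2 kept its call in 19 of 25 alternative settings, and Gclm, a subunit of the enzyme that starts glutathione synthesis and the last of the 5 in the order of p, in 10 of 25. The related Mgst1 changed the other way, by -3.96 (SE 0.69, adjusted p = 0.00326).

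Of 12 genes of the Nrf2 list, the ferritin chains Ftl1 and Fth1 rose and Akr1b3 and Maff fell. Of all genes, 4.79% were higher and 6.48% lower. Ftl1 averaged 7122 ± 3369 CPM in CD105+ arthritic and 1806 ± 744 CPM in CD200+ arthritic cells (log2 change 1.98, SE 0.35, edgeR adjusted p = 0.00345), and Fth1 rose by 1.14 (SE 0.28, adjusted p = 0.0206). The aldose reductase Akr1b3 changed by -1.76 (SE 0.46, adjusted p = 0.0266). Maff, a small Maf factor, had counts in 1 CD105+ library, with 0.228 CPM on average against 22.5 CPM in CD200+ arthritic cells (adjusted p = 0.0296). Akr1b3 and Maff each kept the call in 17 of 25 alternative settings, and Fth1 in 22.

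Of 19 glycolytic genes 1 rose and 1 fell, a share near that of all genes (4.79% higher, 6.48% lower). Pklr, the pyruvate kinase of red cells and liver, had 30.8 to 156 CPM in CD105+ arthritic libraries and no count in CD200+ arthritic libraries (edgeR adjusted p = 0.00168). Set against 3 counts over the CD200+ arthritic group, the difference was 1201-fold. That figure covers counting error only and not the spread between libraries. Ldhb, a lactate dehydrogenase chain, had counts in 1 CD105+ library and averaged 0.672 CPM in CD105+ arthritic against 66.3 CPM in CD200+ arthritic cells (adjusted p = 0.0204).

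None of 8 other pentose phosphate genes, 12 other NADPH sources or 3 haem breakdown genes passed the test in that comparison. The closest in the pathway were Rpe, the ribulose-phosphate epimerase, with 57.2 ± 12.2 CPM in CD105+ arthritic and 25.8 ± 7.33 CPM in CD200+ arthritic cells (edgeR adjusted p = 0.107), and Prps1, which makes phosphoribosyl pyrophosphate, with 169 ± 45.3 and 68.3 ± 46.4 CPM (adjusted p = 0.118). Among NADPH sources they were Idh1 with 12.8 ± 11.3 CPM in CD105+ arthritic and 93.1 ± 62.1 CPM in CD200+ arthritic cells (adjusted p = 0.0822) and Mthfd1 with 205 ± 140 and 39.6 ± 13.4 CPM (adjusted p = 0.0943). Blvra, the other biliverdin reductase, had 195 ± 74.7 CPM in CD105+ arthritic and 31.9 ± 29.7 CPM in CD200+ arthritic cells (adjusted p = 0.0972), and the inducible haem oxygenase Hmox1 3.61 ± 5.98 and 0.0755 ± 0.169 CPM (adjusted p = 0.154). With library sizes from the spike-ins, 6 genes of all these lists rose and 1 fell: Prdx3, Gpx4, Glrx5, Mgst3, Ftl1 and Pklr kept the call as higher and Gpx3 as lower. Of all 15191 genes tested with those sizes, 412 were called higher and 158 lower.

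**Figure D5:**
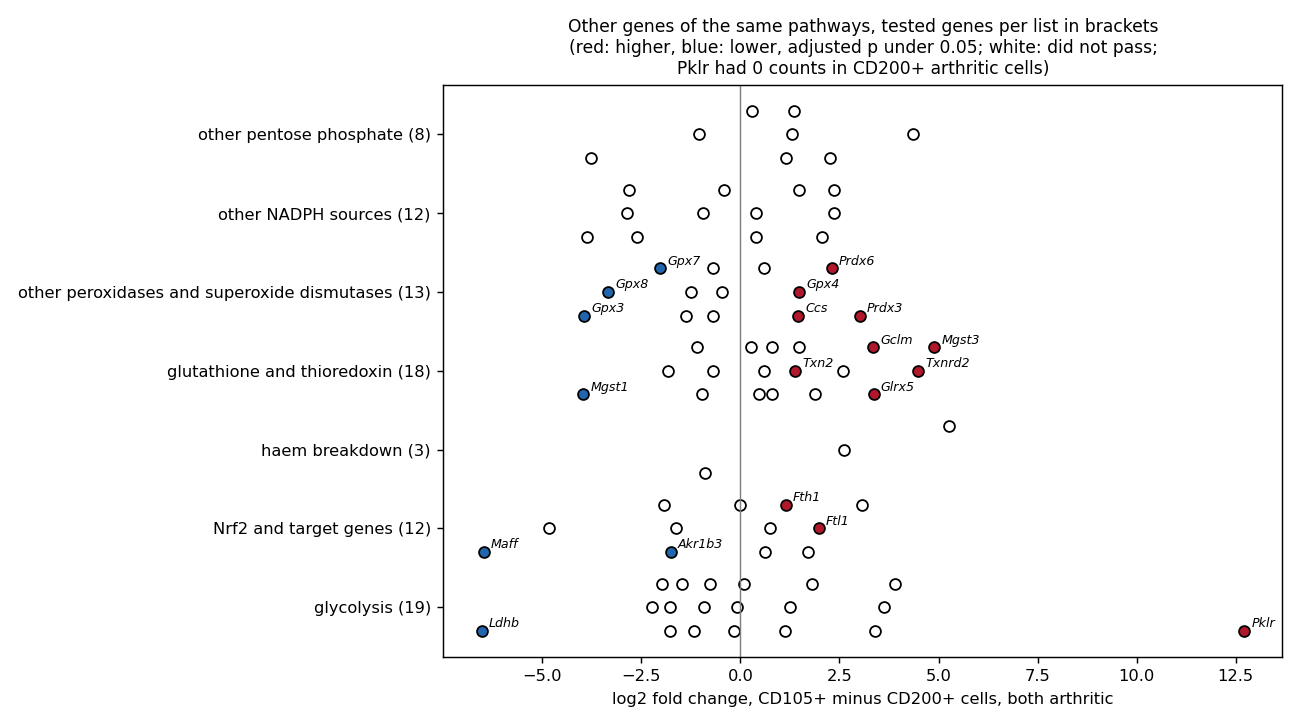
Log2 fold changes of other genes of the same pathways, CD105+ minus CD200+ arthritic cells; each circle is a gene, spread vertically for legibility, coloured where the adjusted p was under 0.05. The 4 rises and 3 falls among the other peroxidases and superoxide dismutases are labelled, and no pentose phosphate, NADPH or haem breakdown gene is coloured.

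The comparison with CD200+ non-immunized cells changes both sorted population and arthritis, which cannot be told apart. Against these cells, with the same CD105+ libraries, 4 of 13 peroxidases and superoxide dismutases rose and 3 fell, beside 5.57% and 7.63% of all genes. They were Prdx3 (log2 change 3.46), Gpx4 (1.73), Prdx6 (1.65) and the mitochondrial Sod2 (1.08), and Gpx8 (-3.28), Gpx7 (-1.94) and Gpx3 (-4.51), at edgeR adjusted p of 0.000603 to 0.0469. In the glutathione and thioredoxin systems 4 of 18 rose, Glrx5 (4.39), Mgst3 (4.79), Txn2 (1.91) and the cytosolic thioredoxin Txn1 (1.09), and 2 fell, Mgst1 (-3.74) and glutathione reductase Gsr (-1.77), at adjusted p of 9.15e-05 to 0.0198. Gsr uses NADPH to reduce oxidized glutathione, and averaged 46.7 ± 11.4 CPM in CD105+ arthritic and 159 ± 69.4 CPM in CD200+ non-immunized cells. The folate enzymes Mthfd1 (4.80, adjusted p = 0.011) and Mthfd2 (4.54, adjusted p = 0.0458) were the 2 of 12 NADPH sources that rose. Of the Nrf2 list 3 of 12 rose, Fth1 (1.90), Ftl1 (2.12) and the quinone reductase Nqo1 (6.44), and Maff fell, with counts in 1 CD105+ library. Nqo1 and Mthfd2 each had counts in only 2 CD200+ non-immunized libraries, at 0 to 1.27 and 0 to 5.58 CPM over that group. The size of their changes thus rests on a reference near 0. Of glycolytic genes Pklr rose (adjusted p = 0.00404) and Ldhb (-5.88) and the general pyruvate kinase Pkm (-2.91) fell. This call held in 7 of 25 alternative settings for Sod2, 11 for Nqo1, 10 for Mthfd2, 10 for Pkm, 12 for Prdx6, 16 for Maff and 19 for Ldhb. The 1 of 19 glycolytic genes that rose and the 2 that fell are a share near that of all genes. No other pentose phosphate gene passed, the closest being ribokinase, Rbks, with 63.6 ± 21.2 CPM in CD105+ arthritic and 0.491 ± 0.981 CPM in CD200+ non-immunized cells (adjusted p = 0.066), and H6pd with 2.65 ± 1.61 and 76.3 ± 83.3 CPM (adjusted p = 0.0724). With library sizes from the spike-ins 4 genes of all lists passed, Prdx3, Glrx5, Mgst3 and Pklr, all as higher. Of all 15191 genes tested with those sizes, 163 were called higher and 109 lower.

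In the arthritis comparison within CD200+ cells no gene of these lists passed the edgeR test. Prdx1 averaged 1038 ± 304 CPM in CD200+ arthritic and 521 ± 171 CPM in CD200+ non-immunized cells (SD, n = 5 and 4), a log2 difference of 0.99 (SE 0.31, edgeR adjusted p = 0.636), and its groups did not overlap. Gsr averaged 75.4 ± 22.1 and 159 ± 69.4 CPM in CD200+ arthritic and non-immunized cells (difference -1.08, SE 0.37, adjusted p = 0.636). Mthfd1 averaged 39.6 ± 13.4 CPM in CD200+ arthritic and 7.32 ± 7.47 CPM in CD200+ non-immunized cells (adjusted p = 0.674), again without overlap. Groups did not overlap for 1 of 13 other peroxidases and superoxide dismutases, 1 of 12 NADPH sources and 1 of 18 glutathione and thioredoxin genes. The other pathway lists had none. Of all genes, 2.29% did not overlap, and nothing is read from these counts. Fth1 averaged 4064 ± 1361 CPM in CD200+ arthritic and 2407 ± 415 CPM in CD200+ non-immunized cells (adjusted p = 0.675).

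Genes with a profile most like that of the enzymes were taken as those with the smallest mean absolute difference from the mean profile over the 14 libraries, on centred log2 CPM, among 10071 genes. For the 5 antioxidant enzymes they were Gadd45gip1 (0.281), Dek (0.338), Acp1 (0.355), Anp32b (0.399) and Psmd9 (0.408). Among the enzymes themselves Prdx2 was the nearest to that mean profile, at 0.399, and Cat the farthest, at 1.71. Dek averaged 1037 ± 238 CPM in CD105+ arthritic, 161 ± 50.4 CPM in CD200+ arthritic and 158 ± 50.1 CPM in CD200+ non-immunized cells. For the 5 pentose phosphate enzymes the nearest were Nolc1 (0.616), Mrpl18 (0.617), Topbp1 (0.627), Dcaf17 (0.630) and Brd7 (0.648), while the enzymes themselves lay from 1.04 for Taldo1 to 2.10 for Pgd. Those other genes were picked as the nearest of 10071, and the enzymes were not picked for nearness. Their distances are therefore not a like comparison, and nothing is read from them about the enzymes.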

How the data were processed

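The authors deposited whole-number counts of reads per gene for 14 libraries, per the file headers and the values. Per the labels' protocols, cDNA came from a SMART-Seq v4 kit with ERCC spike-ins and libraries from Nextera XT. Per the submitters' processing notes, the tools were edgeR, StringTie, HISAT2 and cutadapt and the builds GRCm38 and mm10; versions and the strand setting are not given in the sources used here. A further table, named as normalized and filtered, holds the raw counts of 14322 of the same genes and served only as an alternative choice of genes. Symbols, positions and exon lengths came from GENCODE M21 (GRCm38), which matched 47310 of 47729 gene IDs; Ahsp and Ly76 were not matched. Single values of 1 marker gene are not reported here, while it stays in the summed levels and counts.

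Spike-ins (92) were left out of library sizes. edgeR 4.0.16 in R 4.3.3 (filterByExpr with a minimum count of 10, TMM, robust quasi-likelihood, all 14 libraries, 3 groups, no block) gave two-sided tests adjusted by Benjamini-Hochberg over 15015 genes, with a threshold of 0.05. Standard errors are approximate and were derived from the log2 change and the test's F statistic. The tests were checked on simulated data. The enzymes and the gene lists were chosen with earlier results of these data known. All 10 enzymes were named in every library. Of each other pathway list up to 4 genes per direction that passed were named in the order of p, or up to 2 with the smallest p where none passed, fewer in the arthritis comparison. The 5 genes nearest each mean profile had at least 10 CPM in their highest group. Levels between genes are TPM from exon lengths. Motifs were searched in RefSeq promoters. Libraries of a group were compared for duplicates (26 pairs), and none was found.

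Alternatives were haemoglobin genes left out, RLE factors, spike-in library sizes, a stricter filter (10 CPM in 4 libraries), no filter, the genes of the second table, no robust option, only the 2 groups compared, DESeq2 1.42.0, limma 3.58.1 voom with sample weights, the 3 libraries over 80% spike-ins left out, and each library left out in turn.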

Additional observations from a re-analysis of the deposited data

Results flagged for a closer look

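In this list 3 values were picked out because 1 library lay far from the rest of its group, by Dixon's test over 30 groups of 4 or 5 libraries, where chance picks out about 1 in 20. G6pdx had 175 CPM in CD105+ arthritic library 12, and the next library of the group had 78.6 CPM. Gpx1 had 3631 CPM in CD105+ arthritic library 10, and the next had 1605 CPM. Gpx1 had 609 CPM in CD200+ arthritic library 6, and the next had 137 CPM.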

How the results depend on the processing

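Over 25 alternatives none of the 10 enzymes passed for arthritis in CD200+ cells. In the other comparisons, which share the CD105+ libraries and on which the enzymes were chosen, the log2 differences are descriptions: against CD200+ arthritic cells they ranged from 5.05 to 7.00 for Blvrb, 3.01 to 4.45 for Prdx2, 2.68 to 4.97 for Gpx1 and 2.52 to 3.81 for Taldo1. The counts over all genes moved more. For arthritis in CD200+ cells, DESeq2 called 344 and voom 4 in place of 0, and 0 to 2 genes (2 without library 3) passed when each library was left out in turn. For CD105+ against CD200+ arthritic cells 1692 became 570 with spike-in library sizes, 3547 with DESeq2, 4536 with voom and 1090 (without library 14) to 1794 with each library left out. Against CD200+ non-immunized cells 1982 became 272, 4067, 4900 and 1308 (without library 14) to 2353 in the same order. The share of calls that were higher was 42.5% and 42.2% in these comparisons, 72.3% and 59.9% with spike-in library sizes, 52.5% and 53.8% with only the groups compared, and 31.9% against non-immunized cells with RLE factors; the cause was not tested. Of the other pathway genes, 7 were lower against CD200+ arthritic cells, and 5 to 11 (11 without library 6) with each library left out; against non-immunized cells 8 were lower, and 5 (without library 10 or 14) to 11. Of 90 mean levels of the enzymes under other scalings, 10 moved by more than 1 SD, all with spike-in library sizes. No paired analysis was possible, since the labels only number the samples and give no pairing. Whether CD200+ and CD105+ arthritic samples came from the same mice is unknown, and the tests treated them as unpaired. Values of 0 for G6pdx, Pgls, Pgd, Tkt and Cat occurred in libraries 2, 5 and 6, which had the fewest counts on genes, and for G6pdx also in library 8; their cause was not tested.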
